A study of Saccharomyces cerevisiae with 21 samples.

Results

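Loss of Slh1 was examined in yeast that also lacked Hel2, by setting 2 libraries of hel2slh1dom34ski2 cells against 2 libraries of hel2dom34ski2 cells, 4 of the 21 samples of the series. Members were chosen by genotype and fragment size, with earlier results of these data known: monosome footprints (ribosome-protected fragments, RPFs) of these strains on the NGD-CGA reporter. Both strains lacked DOM34 and SKI2, and the same step with Hel2 present, slh1dom34ski2 against dom34ski2 (2 libraries each), is given for comparison. All strains carried the reporter at ADE2 under a galactose-inducible promoter, as GFP, a 2A sequence, a FLAG tag and HIS3 interrupted by 12 CGA codons, and the labels give no drug treatment. The question was which effects of removing Slh1 on the stalled ribosome, the queue behind it, read-through and short footprints were seen where Hel2 was absent. The sources used here do not say whether the 2 libraries of a strain came from separate cultures, so p-values measure only the spread between these libraries.

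CGA is an arginine codon decoded slowly in yeast, and ribosomes that stop on a run of CGA codons are run into by the ribosomes behind them. Hel2 (YDR266C, chromosome IV, 1000104 to 1002023 in R64) is the E3 ubiquitin ligase that marks the small subunits of collided ribosomes. Slh1 (YGR271W, chromosome VII, 1031791 to 1037694) is the RNA helicase of the complex that takes marked, collided ribosomes apart. Messages with collided ribosomes can be cut by the endonuclease Cue2, and Dom34 releases ribosomes that run to the end of a cut message. Ski2 is the helicase that feeds RNA to the exosome, so cut fragments persist where SKI2 is deleted.

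Footprints came in 3 sizes. RPFs of 21 nt mark a ribosome with an empty A site that waits to decode, RPFs of 28 nt mark the rotated state or an occupied A site, and RPFs of 16 nt mark a ribosome at the 3′ end of a cut message. Values are rpm, reads at a position scaled to the total reads of the library. Positions count from 0 at the first nt of CGA codon 2, so that the tract spans -3 to 32 (nt 1111 to 1146 of the 1586 nt reporter). The upstream body is nt 1 to 810, which holds GFP, and values "per reporter" are divided by its 21 and 28 nt RPFs. The queue window runs from 300 nt before the tract to its end, read-through from 33 to the stop codon (33 to 419), the stall is the 21 nt RPFs of CGA codons 2 to 5 (0 to 11), and the collided ribosome is the 28 nt RPFs at -30 to -19.

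The sequences below are the stretches on which the values turn, read from the deposited reporter sequence; neither flank has an exact match in the R64 genome. In the first, capitals mark the codons at -30 to -19 where the A site of the collided ribosome lies. In the second, the start of the tract, they mark CGA codons 2 to 5, and in the third the first codon after the tract.
Before the tract, -33 to -4: ggtGACTTGCACATTgacgaccaccacacc
Tract, -3 to 14: cgaCGACGACGACGAcga
After the tract, 33 to 62: ACTgaagactgtggtattgctttgggtcaa

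Library depth was between 3179018 reads (hel2slh1dom34ski2 replicate 1) and 13542242 reads (hel2dom34ski2 replicate 1) in the 2 strains without Hel2, so that 3 reads came to 0.222 to 0.944 rpm. Replicate 1 of hel2slh1dom34ski2 was the shallowest of the 8 libraries compared and stood apart in reading frame: 56.3% of its 28 nt RPFs before the tract (Wilson 95% interval 55.7 to 57.0%) had the A site on the middle nt of a codon, against 73.1% in replicate 2, and 66.7% and 72.4% in hel2dom34ski2. The first replicates and the second replicates were deposited as separate sets, labelled as polyA RNA and as total RNA, with 1 library of each strain in each set. The label of slh1dom34ski2 replicate 2 gives fragments of 40 to 80 nt, but its columns hold the same 3 footprint sizes. The traces cover the reporter alone, so reads on SLH1 and HEL2 were not used to check the deletions.

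Without Hel2, removing Slh1 went with more RPFs in the upstream body of the reporter. The upstream body, which lies in front of the queue, held 2563 and 3557 rpm in hel2slh1dom34ski2 against 2007 and 1635 rpm in hel2dom34ski2. Both values without Slh1 were above both values with it, and the means differed 1.68-fold (log2 difference 0.74; 0.35 in set 1 and 1.12 in set 2). With Hel2 present the order was the other way, with 1715 and 1996 rpm in slh1dom34ski2 against 2514 and 2314 rpm in dom34ski2 (log2 difference -0.38). The difference between the 2 backgrounds was 1.12 on the log2 scale (exact permutation of the HEL2 genotype within strains of the same SLH1 genotype, two-sided p = 0.0556, the smallest that its 36 arrangements allow). With 2 libraries against 2, the two-sided exact permutation test of a single comparison cannot go below 0.333, and that was its value here. The 7 regions gave 13 such tests of each kind, in rpm and per reporter, and after Benjamini-Hochberg adjustment over the 13 no exact permutation p was below 0.361 for a difference between backgrounds or below 0.542 for loss of Slh1 without Hel2. In 30 nt bins further upstream than -300, 23 of 25 were higher in rpm in hel2slh1dom34ski2 than in hel2dom34ski2 and 5 of 25 were higher in slh1dom34ski2 than in dom34ski2. Relative to the upstream body, these counts were 11 and 8 of 25. Footprints do not tell more mRNA from more ribosomes on each mRNA, and the part of mRNA amount in the difference of the upstream body was not tested.

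**Figure D1:**
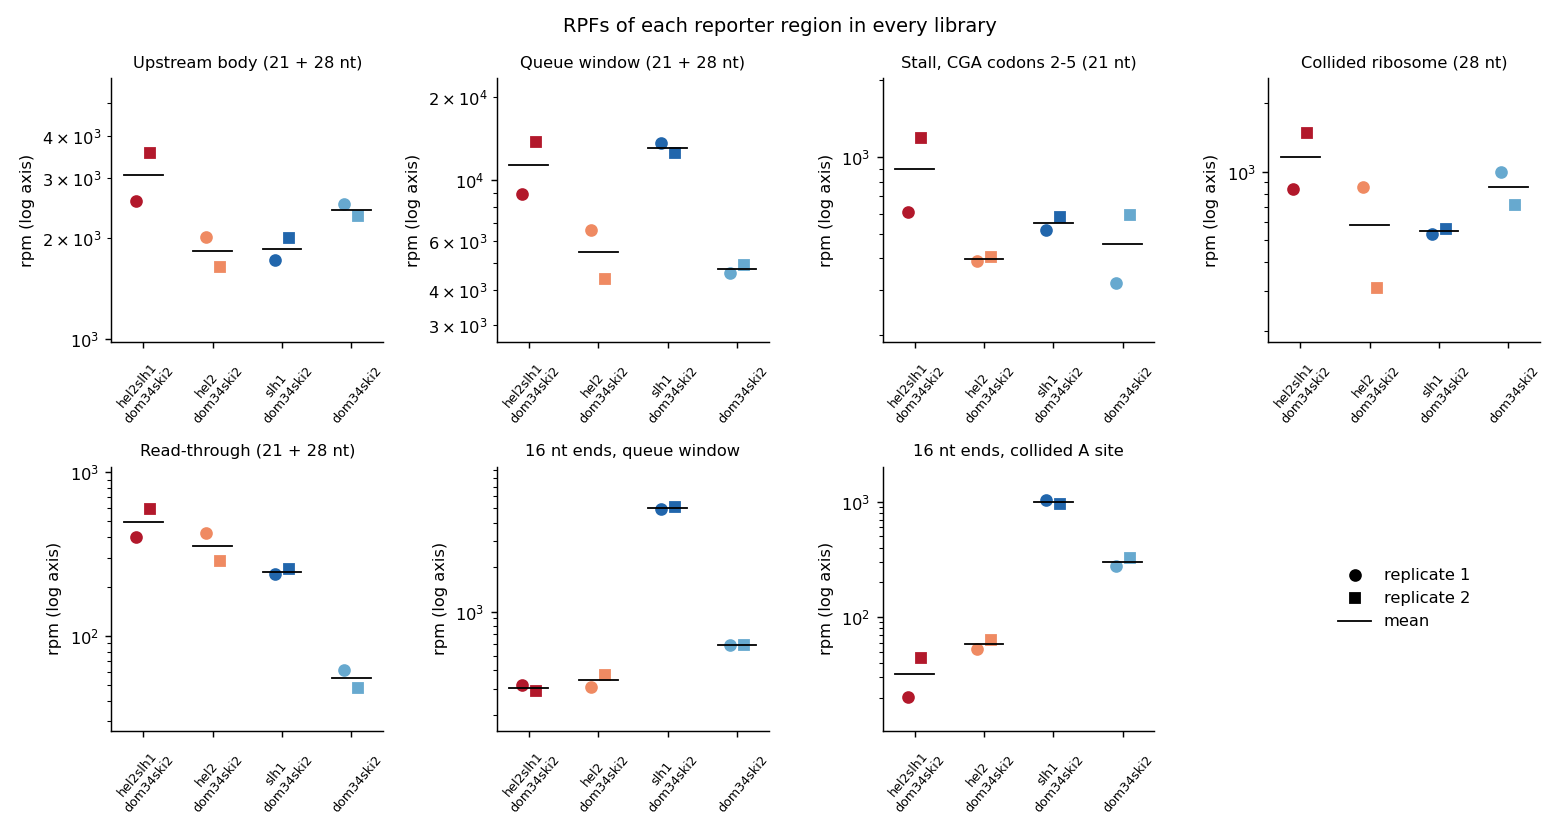
RPFs in rpm (log axis) of 7 reporter regions in hel2slh1dom34ski2, hel2dom34ski2, slh1dom34ski2 and dom34ski2; circles are replicate 1, squares replicate 2 and lines the mean. In the panels of 16 nt ends the 4 libraries without Hel2 sit below all 4 libraries with Hel2.

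The queue was larger in rpm, and the strains lay closer once it was set against the upstream body. The queue window held 8871 and 13740 rpm of 21 and 28 nt RPFs in hel2slh1dom34ski2, against 6624 and 4406 rpm in hel2dom34ski2. These did not overlap and the means differed 2.05-fold (log2 difference 1.03; 0.42 in set 1 and 1.64 in set 2; exact permutation p = 0.333). Per reporter they were 3.46 and 3.86, against 3.30 and 2.69, a 1.22-fold difference of the means (log2 difference 0.29; 0.07 in set 1 and 0.52 in set 2). With Hel2, the same values per reporter were 7.94 and 6.28 in slh1dom34ski2 and 1.84 and 2.13 in dom34ski2, a 3.58-fold difference. The effect of Slh1 loss per reporter was smaller without Hel2 than with it by 1.54 on the log2 scale (exact permutation p = 0.0556, the smallest possible). In rpm that difference was -0.42 (exact permutation p = 0.5), and it was -1.14 in set 1 and 0.29 in set 2. As a share of all 21 and 28 nt RPFs on the reporter, the window took 75.0% and 76.8% in hel2slh1dom34ski2, 73.2% and 69.6% in hel2dom34ski2, 87.5% and 84.8% in slh1dom34ski2 and 64.2% and 67.6% in dom34ski2.

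Bin by bin, the backgrounds parted from about 61 nt behind the tract upstream. From -240 to -1, all 8 bins of 30 nt were higher in hel2slh1dom34ski2 than in hel2dom34ski2 in rpm, by 0.67 to 1.42 on the log2 scale, and per reporter the 8 differences lay between -0.06 and 0.68 (median 0.22). With Hel2 the 8 differences per reporter lay between 0.07 and 2.90 (median 2.37). In the bin next to the tract, -30 to -1, hel2slh1dom34ski2 had 1494 and 2545 rpm and hel2dom34ski2 had 1363 and 728 rpm. At -60 to -31 it had 1411 and 1991 rpm against 791 and 497 rpm, the bin with the largest difference of the 8 in both scales. At -210 to -181, by contrast, it had 487 and 723 rpm against 436 and 317 rpm, which per reporter was a log2 difference of -0.06, while slh1dom34ski2 had 1329 and 1157 rpm against 215 rpm in each dom34ski2 library (log2 difference per reporter 2.90).

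In all 8 libraries the RPFs dropped from the bin at -240 to -211 to the next bin upstream, at -270 to -241. The bin at -240 to -211 held 18.3 and 16.3 times the RPFs of the bin at -270 to -241 in hel2slh1dom34ski2, and 7.76 and 3.36 times in hel2dom34ski2. The outer bin was the one bin of the 10 within 300 nt that was lower in rpm without Slh1, with 40.6 and 72.3 rpm in hel2slh1dom34ski2 against 74.9 and 86.8 rpm in hel2dom34ski2. Further upstream the RPFs rose again. At -360 to -331 there were 434 and 507 rpm in hel2slh1dom34ski2 and 313 and 172 rpm in hel2dom34ski2. In dom34ski2 there were 336 and 229 rpm, more than its 238 and 173 rpm at -240 to -211. The bin edges were fixed, so the drop does not place the end of the queue.

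**Figure D2:**
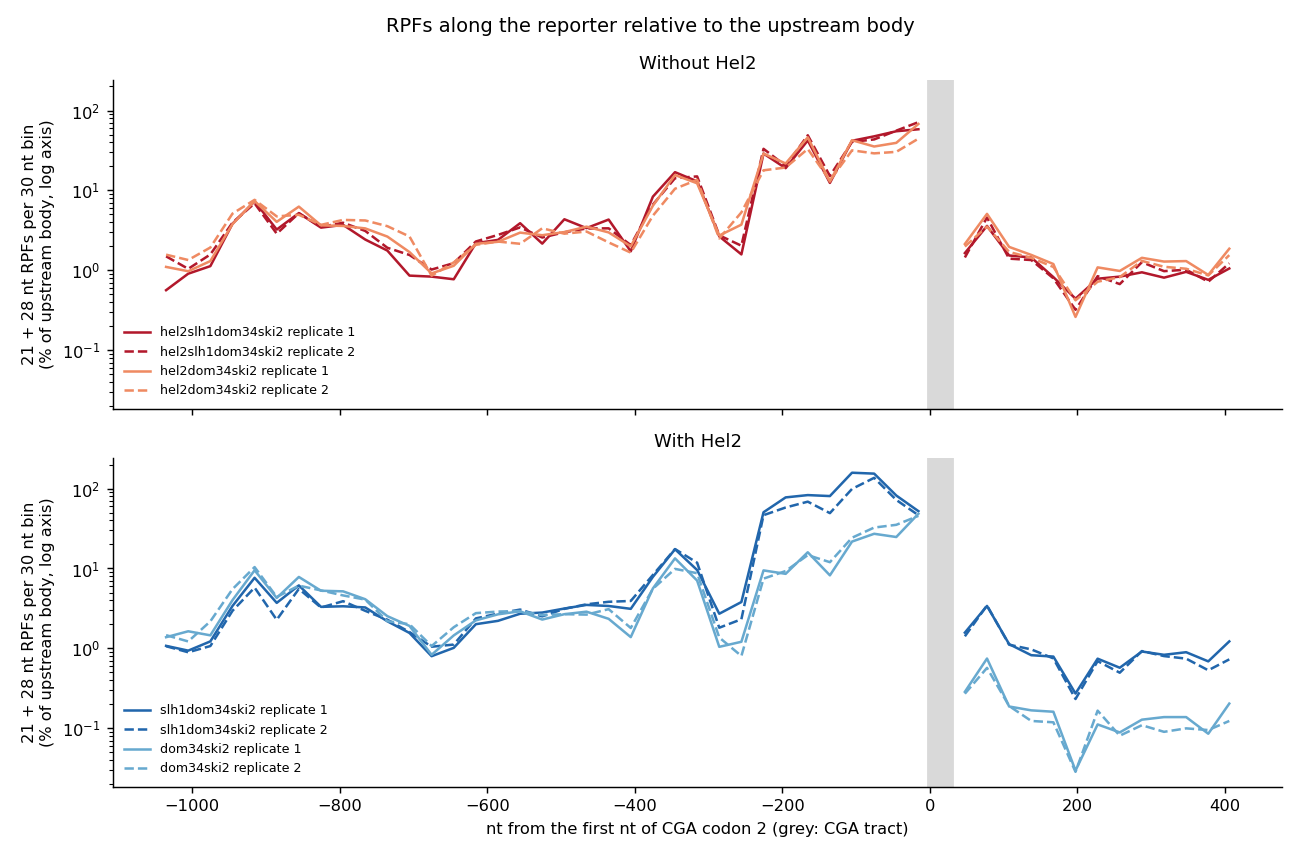
RPFs of 21 and 28 nt per 30 nt bin, as a percentage of the upstream body of the same library (log axis), by distance from CGA codon 2, without Hel2 (top) and with Hel2 (bottom); solid lines are replicate 1 and dashed lines replicate 2. Without Hel2 the mean log2 differences of the 10 bins before the tract run from -1.30 to 0.68, and with Hel2 those bins run from 0.07 to 2.90, with the libraries of both strains interleaved at -30 to -1 and slh1dom34ski2 above dom34ski2 in the other 9 and in all 13 bins downstream.

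Ribosomes waiting on the tract were more abundant without Slh1 in rpm. The stall held 611 and 1191 rpm of 21 nt RPFs in hel2slh1dom34ski2, against 389 and 406 rpm in hel2dom34ski2, with no overlap and a 2.27-fold difference of the means (log2 difference 1.099; exact permutation p = 0.333). Per reporter the values were 0.238 and 0.335 against 0.194 and 0.248 (log2 difference 0.36; exact permutation p = 0.667), and the strains overlapped. With Hel2 the stall was 516 and 583 rpm in slh1dom34ski2 and 321 and 590 rpm in dom34ski2. The difference between the backgrounds was 0.77 in rpm and -0.35 per reporter (exact permutation p = 0.389 and 0.667).

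The 21 nt RPFs peaked on the middle nt of CGA codons 2 to 5 in all 8 libraries. At position 4, in CGA codon 3, they reached 181 and 336 rpm in hel2slh1dom34ski2 and 104 and 72.8 rpm in hel2dom34ski2. At position 10, in codon 5, they reached 120 and 241 rpm against 57.0 and 68.5 rpm, and at position 7, in codon 4, 65.4 and 177 rpm against 47.9 and 37.7 rpm. The strains did not overlap at any of these 3 positions, which like position 1 were picked as among the 5 highest of hel2slh1dom34ski2. At position 1, in codon 2, the values were 71.1 and 235 rpm against 68.8 and 96.0 rpm, and they overlapped.

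CGA codons 7 to 11 and the last nt of codon 6 gave no usable values. A 21 nt footprint with its A site at 14 to 29 has a sequence that occurs 5 or 6 times in the reporter, and the deposited values there were 0 in all 8 libraries, apart from 14.5 rpm at 29 in hel2slh1dom34ski2 replicate 1. At position 13, in CGA codon 6 and the last with a sequence of its own before that stretch, hel2slh1dom34ski2 had 0.629 rpm in replicate 1 and 238 rpm in replicate 2, against 24.5 and 36.02 rpm in hel2dom34ski2. At that nt the 2 replicates thus lay on either side of the strain they are compared with. At position 12, the nt before it in the same codon, hel2slh1dom34ski2 had 33.3 and 5.62 rpm, against 1.77 and 4.34 rpm in hel2dom34ski2. The low value of replicate 1 at position 13 therefore does not show an empty codon 6. Whether reads of replicate 1 were placed 1 nt off was not tested. Positions 12 and 13 were picked with their values already known, and they lie outside the stall.

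On the last CGA codon, where a ribosome has all but cleared the tract, 21 nt RPFs were higher in 3 of the strains than in dom34ski2. Position 31 held 73.0 and 182 rpm in hel2slh1dom34ski2 and 42.8 and 43.3 rpm in hel2dom34ski2. It held 90.1 and 117 rpm in slh1dom34ski2 and 10.5 and 9.34 rpm in dom34ski2. The log2 difference for loss of Slh1 was 1.401 without Hel2 and 3.25 with it.

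**Figure D3:**
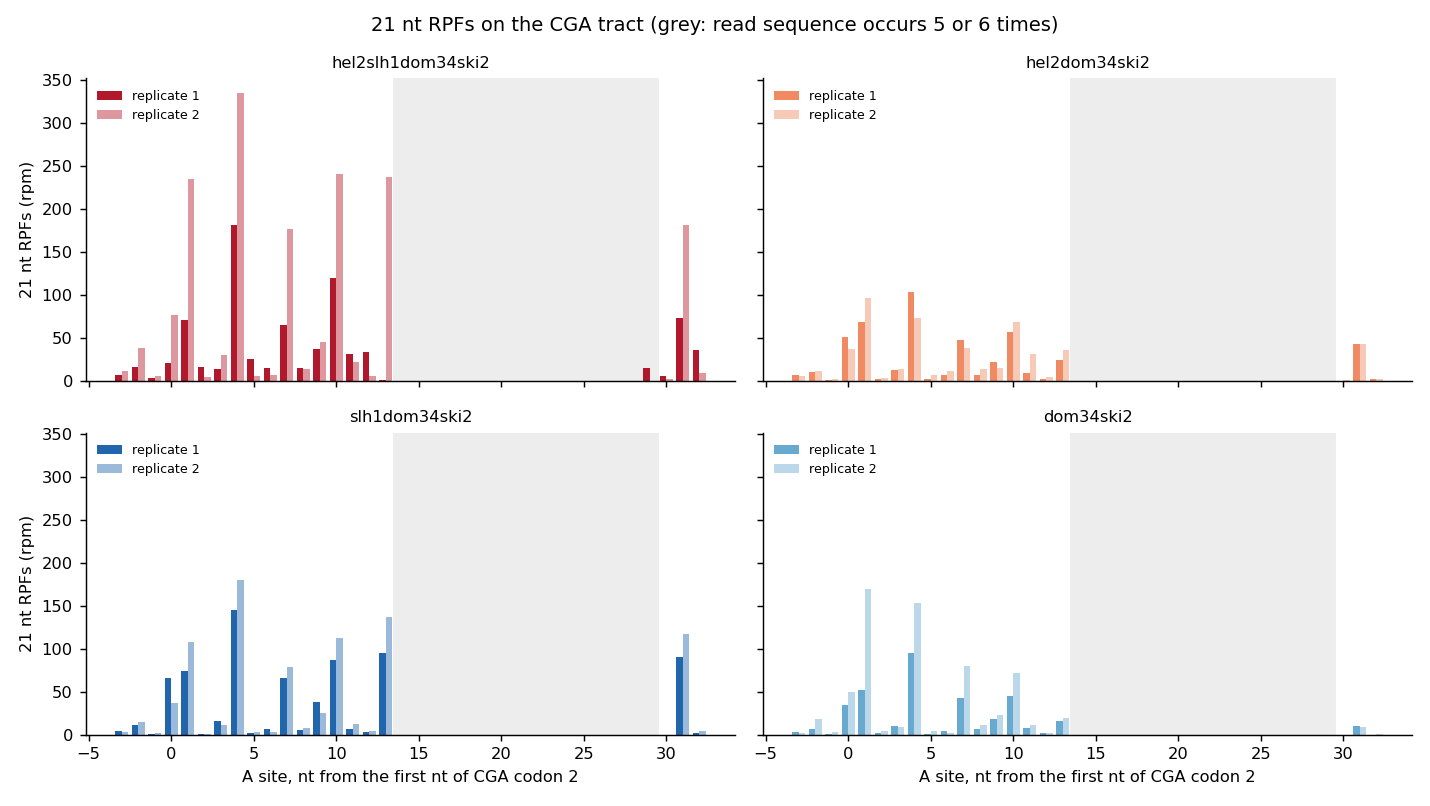
RPFs of 21 nt in rpm at each nt of the CGA tract, by distance from CGA codon 2, in the 4 strains; dark bars are replicate 1 and pale bars replicate 2. Grey marks positions 14 to 29, where the footprint sequence is repeated; position 31 stands at 73.0 and 182 rpm in hel2slh1dom34ski2 and at 10.5 and 9.34 rpm in dom34ski2.

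Shares on the tract count only RPFs that could be placed, which 21 nt RPFs at 14 to 29 could not, so they are not shares of all ribosomes there. Of the placed RPFs on the tract, 78.4% and 84.0% were of the 21 nt class (21 of 21 plus 28 nt RPFs) in hel2slh1dom34ski2, and 75.0% and 68.0% in hel2dom34ski2. The Wilson intervals of all 4 libraries lay within 1.5 percentage points of the value. Behind the tract the order was the other way. There the 21 nt share was 9.17% and 8.45% in hel2slh1dom34ski2 and 10.6% and 18.8% in hel2dom34ski2, so the queued ribosomes carried mostly 28 nt footprints in both strains. With Hel2 these shares were 78.7% and 86.1% on the tract and 11.8% and 9.69% behind it in slh1dom34ski2, and 79.8% and 87.8% on the tract and 8.32% and 8.46% behind it in dom34ski2. The high share behind the tract was that of hel2dom34ski2 replicate 2.

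The first collided ribosome gave values that depended on the library. Its 28 nt RPFs were 837 and 1481 rpm in hel2slh1dom34ski2 against 852 and 309 rpm in hel2dom34ski2, which overlapped (log2 difference 1.12; -0.03 in set 1 and 2.26 in set 2; exact permutation p = 0.667). Per reporter they were 0.326 and 0.416 against 0.425 and 0.189. The difference turned on hel2dom34ski2 replicate 2, without which the log2 difference per reporter was -0.20. With Hel2 the values were 533 and 559 rpm in slh1dom34ski2 and 991 and 716 rpm in dom34ski2, which did not overlap, and per reporter 0.311 and 0.2801 in slh1dom34ski2 and 0.394 and 0.309 in dom34ski2, which did (log2 difference -0.24; exact permutation p = 0.667).

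Single 28 nt positions behind the tract repeated this. The highest in hel2slh1dom34ski2 was -20, in the ATT codon marked above, with 285 and 591 rpm against 288 and 120 rpm in hel2dom34ski2. At -23, in the CAC codon before it, the values were 175 and 428 rpm against 257 and 79.1 rpm. Further back the strains did not overlap in rpm, but all 5 positions given here were picked as the highest of hel2slh1dom34ski2, which favours higher values in that strain. At -32 there were 242 and 408 rpm against 126 and 59.7 rpm, at -104 there were 179 and 338 rpm against 157 and 104 rpm, and at -173 there were 160 and 342 rpm against 150 and 69.6 rpm. Relative to the upstream body the strains stayed apart at -32 (9.43% and 11.5% against 6.30% and 3.65%) and overlapped at -104 (6.97% and 9.51% against 7.82% and 6.34%) and -173 (6.23% and 9.61% against 7.47% and 4.26%). At -104 slh1dom34ski2 had 514 and 381 rpm and dom34ski2 54.6 and 71.1 rpm, and the log2 difference was 0.94 without Hel2 and 2.81 with it.

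Read-through past the tract was high in hel2dom34ski2 already, and was no higher per reporter without Slh1. Downstream of the tract there were 401 and 591 rpm in hel2slh1dom34ski2 and 423 and 288 rpm in hel2dom34ski2, which overlapped (log2 difference 0.48; -0.08 in set 1 and 1.04 in set 2; exact permutation p = 0.667). As RPFs per nt relative to the upstream body, the downstream part stood at 32.7% and 34.8% in hel2slh1dom34ski2 and at 44.1% and 36.8% in hel2dom34ski2. Both libraries without Slh1 were below both with it, by 0.26 on the log2 scale (-0.43 in set 1 and -0.09 in set 2; exact permutation p = 0.333). With Hel2 the density was 29.0% and 26.9% in slh1dom34ski2 and 5.17% and 4.33% in dom34ski2, a 5.88-fold difference. The effect of Slh1 loss per reporter was thus -0.26 without Hel2 and 2.54 with it, a difference of -2.80 that was -2.90 in set 1 and -2.70 in set 2. Its exact permutation p was 0.333. The strains that lack Slh1 lay close together. Any exchange of HEL2 labels among their libraries alone gave a difference at least as large in size.

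Downstream ribosomes were spread along the rest of HIS3. Of 13 bins of 30 nt, 12 were lower in hel2slh1dom34ski2 than in hel2dom34ski2 per reporter, with differences between -0.59 and 0.08, while all 13 were higher in slh1dom34ski2 than in dom34ski2, by 2.11 to 2.60. At the stop codon (417 to 419), 28 nt RPFs were 5.98 and 10.2 rpm in hel2slh1dom34ski2 and 3.54 and 4.89 rpm in hel2dom34ski2, and 3.40 and 1.75 rpm in slh1dom34ski2 and 0.331 and 0.770 rpm in dom34ski2. The other sizes did not follow: at the same codon 21 nt RPFs were 0.944 and 3.83 rpm in hel2slh1dom34ski2 and 5.24 and 2.001 rpm in hel2dom34ski2, which overlapped, and 16 nt RPFs were 0 and 1.19 rpm against 2.73 and 3.11 rpm. Past the stop codon no library of the 8 held more than 0.944 rpm of 21 and 28 nt RPFs. The highest downstream positions of hel2slh1dom34ski2 were 76 for 28 nt RPFs (11.6 and 20.9 rpm, against 16.7 and 4.67 rpm in hel2dom34ski2) and 86 for 21 nt RPFs (5.03 and 17.8 rpm, against 3.40 and 1.001 rpm).

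Of the 7 regions, the 16 nt ends of the window had the largest difference between the backgrounds, in rpm and per reporter. In the queue window, 16 nt RPFs were 321 and 289 rpm in hel2slh1dom34ski2 and 311 and 374 rpm in hel2dom34ski2, which overlapped (0.89-fold; log2 difference -0.16; exact permutation p = 0.667). With Hel2 present they were 4961 and 5130 rpm in slh1dom34ski2 and 595 and 596 rpm in dom34ski2, 8.48-fold apart. Per reporter they were lower without Slh1 where Hel2 was absent, 0.125 and 0.0812 against 0.155 and 0.229 (log2 difference -0.90; -0.31 in set 1 and -1.49 in set 2; exact permutation p = 0.333), and 11.1-fold higher without Slh1 where Hel2 was present. The difference between the backgrounds was -3.24 in rpm and -4.36 per reporter (exact permutation p = 0.333 for both). As a share of all RPFs in the window, 16 nt RPFs were 3.49% and 2.06% in hel2slh1dom34ski2, 4.48% and 7.82% in hel2dom34ski2, 26.7% and 29.0% in slh1dom34ski2 and 11.4% and 10.8% in dom34ski2.

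At the A site of the collided ribosome the 16 nt ends were lowest in hel2slh1dom34ski2 of the 4 strains. There were 20.1 and 44.4 rpm (64 and 521 reads), against 53.0 and 63.8 rpm in hel2dom34ski2, with no overlap (log2 difference -0.93; -1.35 in set 1 and -0.51 in set 2; exact permutation p = 0.333). With Hel2 they were 1026 and 950 rpm in slh1dom34ski2 and 277 and 324 rpm in dom34ski2. Per reporter the values were 0.00785 and 0.0125 in hel2slh1dom34ski2 against 0.0264 and 0.0390 in hel2dom34ski2. Their log2 difference was -1.67 (-1.71 in set 1 and -1.64 in set 2, exact permutation p = 0.333). Per reporter with Hel2 there were 0.598 and 0.476 in slh1dom34ski2 against 0.110 and 0.140 in dom34ski2. At -30, the first nt of the GAC codon, the 4 libraries without Hel2 lay between 0.944 and 3.10 rpm and the 4 with it between 135 and 202 rpm. At -27, in the TTG codon, they lay between 0.556 and 1.55 rpm and between 49.5 and 87.7 rpm. At -21, in the ATT codon, the values were 4.40 and 14.8 rpm in hel2slh1dom34ski2, 14.8 and 12.9 rpm in hel2dom34ski2, 683 and 678 rpm in slh1dom34ski2 and 24.4 and 21.1 rpm in dom34ski2. At -42, in a GAA codon further back, they were 1.89 and 6.64 rpm, 10.9 and 9.45 rpm, 734 and 926 rpm and 22.9 and 27.9 rpm in the same order of strains. At -24, in the CAC codon, 16 nt ends were 1.57 and 8.69 rpm in hel2slh1dom34ski2 and 16.9 and 26.1 rpm in hel2dom34ski2, the largest difference of the 5 positions (log2 -2.14).

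The 16 nt ends without Hel2 were also less regular. Before the tract, 47.5% (Wilson 95% interval 43.8 to 51.3%) and 64.5% (62.7 to 66.3%) of them ended on the first nt of a codon in hel2slh1dom34ski2, and 66.0% and 64.1% in hel2dom34ski2. In slh1dom34ski2 the shares were 90.9% and 92.1% and in dom34ski2 87.6% and 91.8%. The lowest share was that of hel2slh1dom34ski2 replicate 1, the library whose 28 nt RPFs were also least in frame. Every library without Hel2 was below every library with it.

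**Figure D4:**
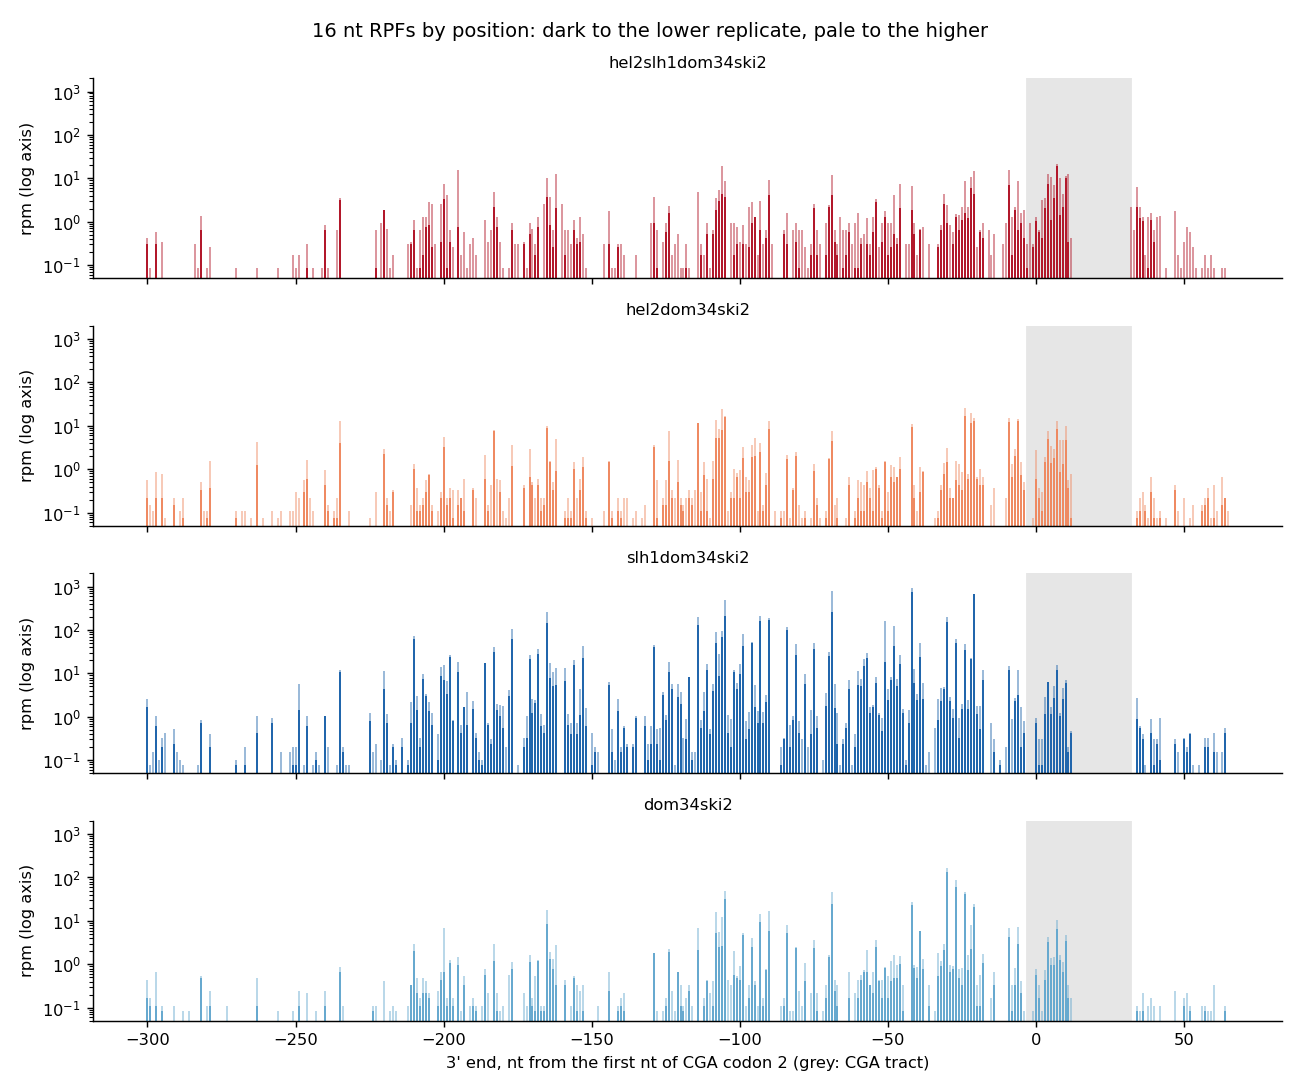
RPFs of 16 nt in rpm (log axis) by the position of the 3′ end relative to CGA codon 2, in the 4 strains from top to bottom hel2slh1dom34ski2, hel2dom34ski2, slh1dom34ski2 and dom34ski2; the dark part reaches the lower replicate and the pale part the higher. At -30 the 4 libraries without Hel2 lie between 0.944 and 3.10 rpm and the 4 with it between 135 and 202 rpm.

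On part of the tract and just past it, 16 nt RPFs were higher without Slh1 in rpm in both backgrounds. At position 7, in CGA codon 4, they were 21.7 and 18.7 rpm in hel2slh1dom34ski2 and 8.57 and 13.2 rpm in hel2dom34ski2, with 15.8 and 11.8 rpm in slh1dom34ski2 and 6.36 and 10.6 rpm in dom34ski2. At position 10 they were 11.3 and 10.4 rpm against 4.65 and 10.1 rpm without Hel2. At position 4 they were 12.6 and 7.41 rpm against 5.02 and 7.78 rpm without Hel2, which overlapped. Relative to the upstream body the strains overlapped at positions 7 and 10 too. At position 7 there were 0.847% and 0.527% in hel2slh1dom34ski2 against 0.427% and 0.809% in hel2dom34ski2, and at position 10 0.442% and 0.292% against 0.232% and 0.619%. Positions 4, 7, 10 and 34 were picked as among the highest of hel2slh1dom34ski2, which favours higher values in that strain. On the first codon after the tract, at position 34, hel2slh1dom34ski2 had 6.29 and 2.22 rpm while hel2dom34ski2 had 0.0738 and 0.111 rpm, which is 1 read in each of its libraries, and slh1dom34ski2 had 0.871 and 2.68 rpm. Over the 30 nt after the tract the 16 nt RPFs came to 15.1 and 12.3 rpm in hel2slh1dom34ski2 and 2.88 and 3.11 rpm in hel2dom34ski2 (log2 difference 1.87), and to 6.41 and 6.81 rpm in slh1dom34ski2 and 1.16 and 1.65 rpm in dom34ski2 (1.67). This is a small amount beside the 16 nt RPFs of the window.

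Codon by codon, loss of Slh1 where Hel2 was absent was tested in windows of 3 nt. The windows were fitted together over 14 monosome libraries of 8 strains (limma, adjusted p at most 0.05). For 16 nt RPFs, 1 of 130 windows tested was higher (0.769%) and 1 was lower (0.769%). The higher one was the first codon after the tract (33), with 9.12 and 3.41 rpm in hel2slh1dom34ski2 against 0.295 and 0.222 rpm in hel2dom34ski2 (log2 difference 3.99, SE 0.76, limma adjusted p = 0.0113). The lower one was at -264, with 0 and 0.0852 rpm against 1.26 and 4.34 rpm (log2 difference -4.17, SE 0.93, limma adjusted p = 0.0260). The first hel2slh1dom34ski2 library held no read there, so the fitted size depends on the pseudocount. For 21 nt RPFs, limma called 0 of 323 windows higher (0%) and 0 lower (0%), with 29 higher and 17 lower at an unadjusted p under 0.05, and edgeR called 2. For 28 nt RPFs, 1 of 446 windows was higher (0.224%) and 0 were lower (0%), with 106 higher and 9 lower at an unadjusted p under 0.05. The window was at -123, with 85.6 and 146 rpm in hel2slh1dom34ski2 against 24.9 and 9.67 rpm in hel2dom34ski2 (log2 difference 2.84, SE 0.60, limma adjusted p = 0.0438), and it did not pass relative to the upstream body, where limma called 0 windows. The 28 nt count depended on the fit: it was 46 with a pseudocount of 1 rpm, 56 and 28 with the 8 or the 4 libraries alone, 15 with the replicate number as a block and 9 with edgeR.

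These counts rested on single libraries. Without hel2slh1dom34ski2 replicate 2, limma called 8, 20 and 8 windows of 16, 21 and 28 nt. Without hel2dom34ski2 replicate 1 it called 0, 0 and 41, and without hel2slh1dom34ski2 replicate 1 or hel2dom34ski2 replicate 2 it called 0 of each size.

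The same fit called many windows for loss of Slh1 with Hel2 present. Of 16 nt windows 58.5% were higher and 0% lower, of 21 nt windows 14.6% were higher and 0% lower, and of 28 nt windows 20.2% were higher and 2.02% lower. Of the 64 tested 16 nt windows between -303 and -4, 54 were higher without Slh1 where Hel2 was present, against 0 where it was absent. Windows were tested if their mean over all fitted libraries, slh1dom34ski2 among them, was at least 0.5 rpm. High values in slh1dom34ski2 thus helped 16 nt windows to enter. At -117 it had 8.55 and 8.35 rpm, against 0.248 and 0.440 rpm in dom34ski2 and at most 0.890 rpm without Hel2. The shares of 16 nt windows called are therefore shares of a set chosen in part by that strain.

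Tested directly, the effect of losing Slh1 differed between the backgrounds in 54 of the 130 windows of 16 nt RPFs, all with the lower log2 difference without Hel2 (41.5%; 0% with the higher). In 41 of the 54 the 2 effects had opposite signs, higher without Slh1 where Hel2 was present and lower where it was absent. In 3 of the 54, the window at -264 among these, the effect without Hel2 was the larger in size. The windows were kept by the filter above, which high values in slh1dom34ski2 help a window to pass, and were picked by this same difference. Their signs are therefore no separate result, and the 41.5% is a share of windows chosen in part by that strain. Of all 130 windows, 53 had a positive effect without Hel2 (median log2 difference -0.22), and limma called 1 lower. Of these 54, 43 were among the 64 windows before the tract and 11 among the 55 of the upstream body. The largest difference was at -153, where 16 nt RPFs were 0 and 0.596 rpm in hel2slh1dom34ski2, 1.18 and 2.001 rpm in hel2dom34ski2, 24.4 and 43.6 rpm in slh1dom34ski2 and 0.0826 and 0.330 rpm in dom34ski2 (difference of log2 differences -9.50, SE 1.46, limma adjusted p = 8.41e-04). The first hel2slh1dom34ski2 library held no read at -153 and dom34ski2 was close to 0.1 rpm, so the fitted size there depends on the pseudocount of 0.1 rpm. At -42 the difference was -6.14 (SE 1.15, limma adjusted p = 0.00211). The count was 31 without hel2dom34ski2 replicate 2, the lowest of the 4 libraries left out in turn.

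For 21 nt RPFs, 17 windows had the lower log2 difference without Hel2 (5.26%) and 2 the higher (0.619%), and for 28 nt RPFs 6 had the lower (1.35%) and 8 the higher (1.79%). Relative to the upstream body, 52 of the 323 windows of 21 nt had the lower and 1 the higher. Of the 446 windows of 28 nt, 83 had the lower and 7 the higher on that scale. In rpm, the effects had opposite signs in 14 of the 17 and in 2 of the 6, and in both and in all 8 of the windows with the higher one. These windows too were picked by that difference, so the signs are no separate result. Without Hel2 the effect was positive in 193 of all 323 windows of 21 nt and 348 of all 446 of 28 nt. Windows with the lower log2 difference lay behind or after the tract in all 17 and all 6 cases. One was the 28 nt window at -72, with 122 and 182 rpm in hel2slh1dom34ski2, 87.1 and 50.1 rpm in hel2dom34ski2, 1288 and 1410 rpm in slh1dom34ski2 and 64.2 and 75.5 rpm in dom34ski2 (-3.10, SE 0.75, limma adjusted p = 0.0415). Another was the 28 nt window of the first codon after the tract, with 6.29 and 4.34 rpm, 5.54 and 4.45 rpm, 4.75 and 3.51 rpm and 0.413 and 0.440 rpm in the same order (-2.92, SE 0.78, limma adjusted p = 0.0415). Windows with the higher log2 difference lay in the upstream body in both 21 nt cases and in 6 of 8 of the 28 nt cases. The 28 nt window at -87 was 1 of the 2 others, with 62.3 and 121 rpm in hel2slh1dom34ski2, 30.8 and 13.45 rpm in hel2dom34ski2, 16.9 and 43.5 rpm in slh1dom34ski2 and 48.8 and 94.98 rpm in dom34ski2 (3.41, SE 0.88, limma adjusted p = 0.0415). These calls did not hold up to leaving out a library. The 19 windows of 21 nt became 0 without hel2slh1dom34ski2 replicate 1 or hel2dom34ski2 replicate 2 and 9 without hel2dom34ski2 replicate 1. The 14 of 28 nt became 33 with the replicate number as a block, 0 without hel2slh1dom34ski2 replicate 1, 2 without hel2dom34ski2 replicate 2 and 29 without hel2slh1dom34ski2 replicate 2.

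**Figure D5:**
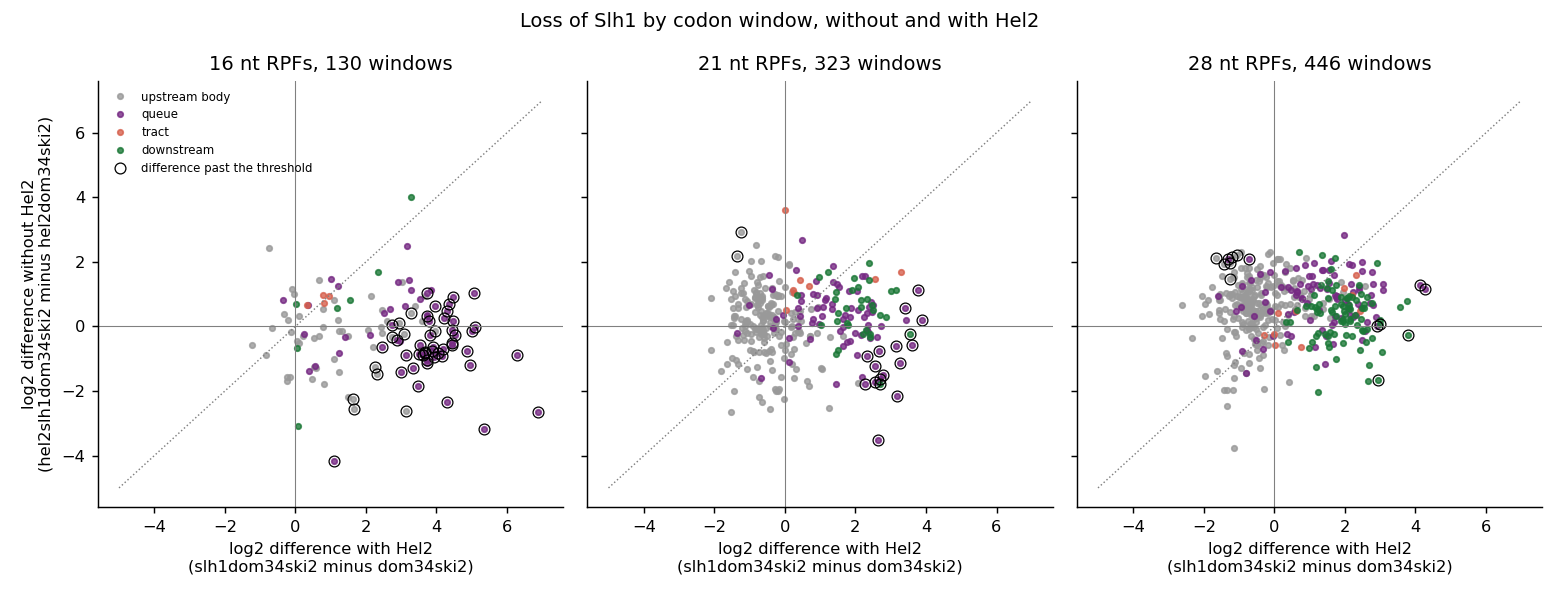
Log2 difference for loss of Slh1 in each 3 nt window, without Hel2 (vertical axis) against with Hel2 (horizontal axis), for 130 windows of 16 nt, 323 of 21 nt and 446 of 28 nt RPFs, coloured by reporter region; the dotted line marks equal effects and rings mark windows whose difference passed the threshold. The windows before the tract spread to the right for 16 nt RPFs, 54 of 64 past the threshold with Hel2, and run from -4.17 to 2.50 on the vertical axis.

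The same removal of Slh1 where the endonuclease Cue2 was absent and Hel2 present could be read within the first set from 1 library of each strain, with no replicate (1261876 reads in cue2slh1dom34ski2 and 15416759 in cue2dom34ski2). Per reporter, read-through was 0.173 in cue2slh1dom34ski2 and 0.0279 in cue2dom34ski2, and the queue window was 3.33 in cue2slh1dom34ski2 and 1.43 in cue2dom34ski2. The 16 nt RPFs of the window were 0.129 in cue2slh1dom34ski2 and 0.0756 in cue2dom34ski2. The cue2dom34ski2 library of the second set, which has no cue2slh1dom34ski2 library beside it here, was at 0.0185 for read-through, 1.73 for the queue window and 0.0304 for 16 nt RPFs, so the difference in 16 nt RPFs depends on which cue2dom34ski2 library is used. In the first set, the hel2slh1dom34ski2 and hel2dom34ski2 values were 0.156 and 0.211 for read-through, 3.46 and 3.30 for the queue window, and 0.125 and 0.155 for 16 nt RPFs.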

How the data were processed

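The authors trimmed reads with skewer, removed ribosomal and non-coding RNA, mapped the rest to 1 place with STAR (R64-1-1 and the reporter), and deposited 2 tables of rpm per nt: 3′ ends for 16 nt RPFs (15 to 17 nt), A sites for 21 nt (20 to 22 nt) and 28 nt RPFs (27 to 32 nt). All deposited rpm values (100%) were whole multiples of 1 read (tolerance 0.1 reads), which gave depth and reads. Columns were matched to samples by name: 42 of 57 value columns were used, and 6 columns that match no sample by name were not (the other 9 hold disome footprints). The 250 lines without sequence that end the second table were dropped. Replicates differed beyond sampling noise (chi-square per degree of freedom 5.71 to 64.5 over 12 comparisons).

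Sums over a region were compared as means of log2(rpm + 1) by exact permutation (two-sided), and intervals and floors cover counting error only. Windows of 3 nt were fitted as log2(rpm + 0.1) with limma 3.58.1 (trend, mean of at least 0.5 rpm, Benjamini-Hochberg, threshold 0.05). Tested on simulated reads for loss of Slh1 without Hel2, the fit called 85.0% of 20 windows of 28 nt changed by 2 on the log2 scale (15.0% of 20 changed by 1), 94.7% of 19 for 21 nt and 78.6% of 14 for 16 nt, among 449, 327 and 139 windows. The simulation drew independent noise of the same size for every window, so these rates need not hold for the real data. Real 28 nt windows at -801, -933 and -618, with log2 differences of 2.13, 2.16 and 2.21, were not called (limma adjusted p = 0.0620 each). For the share of 21 nt RPFs and of each reading frame, exact permutation could give no p below 0.333 for loss of Slh1 without Hel2, so these shares are described by library. Members, regions and window lists were chosen with earlier results of these data known. Named are the regions, the 30 nt bins, and the 5 highest positions of hel2slh1dom34ski2 in the window and 3 downstream for each size. Also named are 5 positions of 16 nt ends, the windows of largest difference past the threshold and the stop codon. Positions 12 and 13, the bins singled out and the stretch 14 to 29 were picked with their values already known. Alternatives were values per reporter, pseudocounts of 0.1 and 1 rpm, other windows, no filter, fewer libraries, edgeR 4.0.16 with counts recovered from rpm, a block for replicate number, and each library left out.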

Additional observations from a re-analysis of the deposited data

Results flagged for a closer look

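The results below drew attention because the effect of losing Slh1 differed between strains without and with Hel2. By limma's contrast of the 2 effects, 54 windows of 16 nt, 19 of 21 nt and 14 of 28 nt RPFs passed the threshold.

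In 5 further values both libraries of hel2slh1dom34ski2 lay on one side of both hel2dom34ski2 libraries while both of slh1dom34ski2 lay on the other side of both dom34ski2 libraries. The difference of log2 differences was 1.12 for the upstream body in rpm (exact permutation p = 0.0556). It was -2.80 for read-through, -4.36 for 16 nt ends in the window and -3.77 for 16 nt ends at the collided A site per reporter (exact permutation p = 0.333 each), and -2.65 for the last of these in rpm (exact permutation p = 0.444). No strain had 4 libraries, so single libraries were not screened for outlying values.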

How the results depend on the processing

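Of 186 alternative values of the region differences, 179 kept their direction and 7 turned. Relative to the upstream body, the read-through difference without Hel2 was -0.26 against 0.48 in rpm (-0.21 and -0.30 without hel2slh1dom34ski2 replicate 1 and 2, -0.13 and -0.39 without hel2dom34ski2 replicate 1 and 2), and the stall difference between backgrounds was -0.35 against 0.77. The collided ribosome per reporter was -0.20 without hel2dom34ski2 replicate 2. These scalings together with a left-out library were added after seeing the data. In rpm, each library left out, differences without Hel2 ran from 0.72 to 1.35 for the queue window, 0.62 to 1.58 for the stall, 0.38 to 1.85 for the collided ribosome, 0.20 to 0.76 for read-through, -0.30 to -0.03 for 16 nt ends in the window, -1.49 to -0.38 for those at the collided A site and 0.50 to 0.97 for the upstream body. No test of a region could pass the threshold.

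Counts of windows moved more. For loss of Slh1 without Hel2, 16 nt windows (2) became 0 with the 4 libraries alone and 1 with no filter, the 8 libraries, edgeR or values per reporter (0 to 8 with a library left out). The 21 nt windows (0) became 1 with a pseudocount of 1 rpm and 2 with edgeR (0 to 20). The 28 nt windows (1) became 46 with a pseudocount of 1 rpm, 0 with no filter, 28 with the 4 libraries, 56 with the 8 libraries, 9 with edgeR and 0 per reporter (0 to 41). For the difference between backgrounds, the 54 windows of 16 nt became 31 to 48 with a library left out. The 19 of 21 nt became 53 per reporter (0 to 26), and the 14 of 28 nt became 27 with a pseudocount of 1 rpm, 4 with no filter, 59 with the 8 libraries, 41 with edgeR and 90 per reporter (0 to 29). With Hel2, 28 nt windows (99) became 151 per reporter. The cause of these changes was not tested.

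Same-numbered libraries of the 2 strains without Hel2 deviated together weakly or not at all (r across windows 0.11 for 16 nt, -0.01 for 21 nt and 0.22 for 28 nt RPFs), and share a deposited set and its RNA label but no stated culture or batch. With the replicate number as a block, 28 nt calls were 15 without Hel2 and 33 for the difference between backgrounds, other window counts stayed within 1.5 times, and the paired exact test of a region, with 2 pairs, cannot go below 0.5. Depth limits low windows: 3 reads were 0.944 rpm in hel2slh1dom34ski2 replicate 1.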
